A study of Mus musculus with 13 samples.

Results

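Exosc1 to Exosc10 encode the core subunits of the RNA exosome and its associated nuclear ribonuclease EXOSC10, and RNA-DNA hybrids were mapped over these 10 genes in N2A cells, a mouse neuroblastoma line. The 10 genes were taken by name from a set of 22368 protein-coding genes (GENCODE vM1, mouse build mm9, with Exosc6 added), and each was examined over its annotated bounds extended by 1 kb on each side. The vM1 annotation gave bounds for 9 of the 10. Exosc6, which it does not list, was placed by an exact and single match of its 300-base RefSeq promoter to the mm9 sequence, at chr8:113580239-113581564. Its extended bounds overlap an annotated exon of the alanyl-tRNA synthetase gene Aars.

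DRIP-seq pulls down RNA-DNA hybrids with the S9.6 antibody from DNA cut with restriction enzymes, and the data are lists of peaks called against input for 12 libraries. Cells were transfected with a scrambled siRNA (siScramble), an siRNA against the RNA helicase gene Ddx1 (siDDX1) or siRNA against Exosc3 (siEXOSC3), each in 3 untreated libraries, and 1 further library of each group was treated with RNase H, which degrades the RNA of a hybrid. The knockdowns were transient in one cell line, so the 3 libraries of a group are 3 plates of that line, and all of them, controls included, were transfected. In 12 of 12 lists the title and the names of the peaks gave different siRNAs. Lists titled siScramble held peaks named siDDX1, lists titled siDDX1 held peaks named siEXOSC3, and lists titled siEXOSC3 held peaks named siScramble. Libraries are given here by their titles. If the peak names are right, the comparison written as siDDX1 against siScramble is one of siEXOSC3 against siDDX1, siEXOSC3 against siScramble is one of siScramble against siDDX1, and siEXOSC3 against siDDX1 is one of siScramble against siEXOSC3. Tests over the 3 groups together, and those of RNase H, do not depend on which is right. The untreated lists held 23882 to 42571 peaks covering 22.0 to 45.3 Mb, and the RNase H lists held 3811 to 8034. Of 10 genes fixed as markers of neuroblastoma, Hand2 had a peak at its start in 9 of 9 untreated libraries, Mycn in some and the others in none. Of 6 genes of other cell types, the macrophage gene Cd68 had one in 9 of 9 and the others none in any. Among all 22368 genes, 11.1% had a start peak in 9 of 9 libraries and 65.9% had none in any. Neighbours of these marker genes were not examined, and peak lists of this kind do not settle the cell type.

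The RNA exosome degrades and trims RNA from its 3′ end. Exosc4 to Exosc9 form a ring of RNase PH-like subunits, Exosc1, Exosc2 and Exosc3 form a cap with RNA-binding S1 or KH domains, and Exosc10 is a 3′ to 5′ exoribonuclease that joins the nuclear complex. The complex works with helicases and adaptors, such as the TRAMP, NEXT and SKI complexes, that hand it substrates. R-loops are structures in which a nascent RNA pairs with its DNA template and leaves the other strand unpaired, and they are known to form at starts and ends of active genes.

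Because the DNA was cut with BsrGI, EcoRI, HindIII, SspI and XbaI before the pull-down, a cut site can bound a peak. Per the study's methods, the DNA was also sonicated after the pull-down. In the 9 untreated libraries 19 peak edges at the 10 genes recurred at the same base in at least 4 libraries, and 19 of the 19 lay on the cut of one of these enzymes. Of all 536 peak edges counted at the 10 genes, 34.3% lay on a cut, against 31.8% of the 597262 edges of all peaks in these libraries (29.5% to 35.7% per library). The share on a cut among recurrent edges of other genes was not counted. The windows below, each 30 bases of mm9 on the strand of the named gene with the recognition site in capitals, are a selection of the recurrent cut sites at the 10 genes. They are named by their distance in bases from the gene start, and the coordinates follow in the next sentences.
Exosc10 at -809: agtaaagccacaTCTAGAcaccacgttgta
Exosc10 at 6526: cacatgtggagcTCTAGAgctccttaccca
Exosc10 at 21054: ccccttccccttTCTAGAaacacactccta
Exosc7 at 2742: ataaagttatttTCTAGAaggaagacactt
Exosc6 at -220: ctcaccttgggcAAGCTTatgtgaaacagt
Exosc6 at 2732: gtctgaggctatTCTAGAttctttggggga
Exosc4 at 1629: cattctttttccTCTAGAtccggggctccc
Exosc1 at 9731: tctttataaataTGTACAtatgtattttgc

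The Exosc10 windows lie at chr4:147931716-147931745, in a non-coding part of an Mtor exon, and at chr4:147939051-147939080 and chr4:147953576-147953605, both in introns of Exosc10. They hold XbaI sites at which a peak began or ended in 8, 9 and 9 of the 9 untreated libraries. The XbaI site at chr9:123025059-123025088, in an intron of Exosc7, ended a peak in 9 of 9. At Exosc6 a HindIII site (chr8:113580006-113580035, in the Aars exon) began a peak in 7 libraries and an XbaI site (chr8:113582955-113582984, between genes) ended one in 6. The XbaI site in a coding exon of Exosc4 (chr15:76159443-76159472) began a peak in 6 libraries. On the minus strand, the BsrGI site at chr19:41998057-41998086, in a non-coding part of an Exosc1 exon, bounded a peak in 8. The 11 other recurrent edges also lay on cuts, among them sites 3373, 16103 and 23928 bases into Exosc10, each used in 7 libraries. In all, 184 of the 536 edges lay on a cut.

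The exosome genes differed widely in how much of them the peaks covered. In the 9 untreated libraries 268 peaks overlapped the 10 extended genes, 25 to 42 per library, and 7 genes (Exosc1, Exosc2, Exosc4, Exosc5, Exosc6, Exosc7 and Exosc10) had at least 1 peak in 9 of 9, where 26.2% of the 22368 genes did. Exosc6 had 71.1% ± 13.8 (SD, n = 9) of its extended length covered, Exosc10 64.7% ± 8.39, Exosc2 52.4% ± 13.8 and Exosc4 47.3% ± 18.6. Exosc1 followed with 16.5% ± 3.53, Exosc7 with 13.9% ± 4.58, Exosc5 with 11.5% ± 9.36, Exosc9 with 9.27% ± 6.87, Exosc8 with 8.13% ± 5.99 and Exosc3, the knockdown target, with 0.816% ± 1.09. In that order neighbouring genes differed by less than the larger of their SDs, except Exosc4 from Exosc1 and Exosc8 from Exosc3. The median over the 10 genes was 15.2% and that over all genes was 0, since 50.1% of all genes had no peak in any untreated library. These shares do not compare expression, because a peak list holds neither read depth nor RNA level. At the gene start (a window of 1 kb on each side of it), 3 genes, Exosc6, Exosc7 and Exosc10, had a peak in 9 of 9 libraries, where 11.1% of all genes did, and 4 genes, Exosc1, Exosc2, Exosc8 and Exosc9, had none in any, where 65.9% of all genes had none. A peak lay over the first base itself in 9 of 9 libraries at 2 of the 10 genes, Exosc6 and Exosc10, against 5.04% of all genes.

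**Figure D1:**
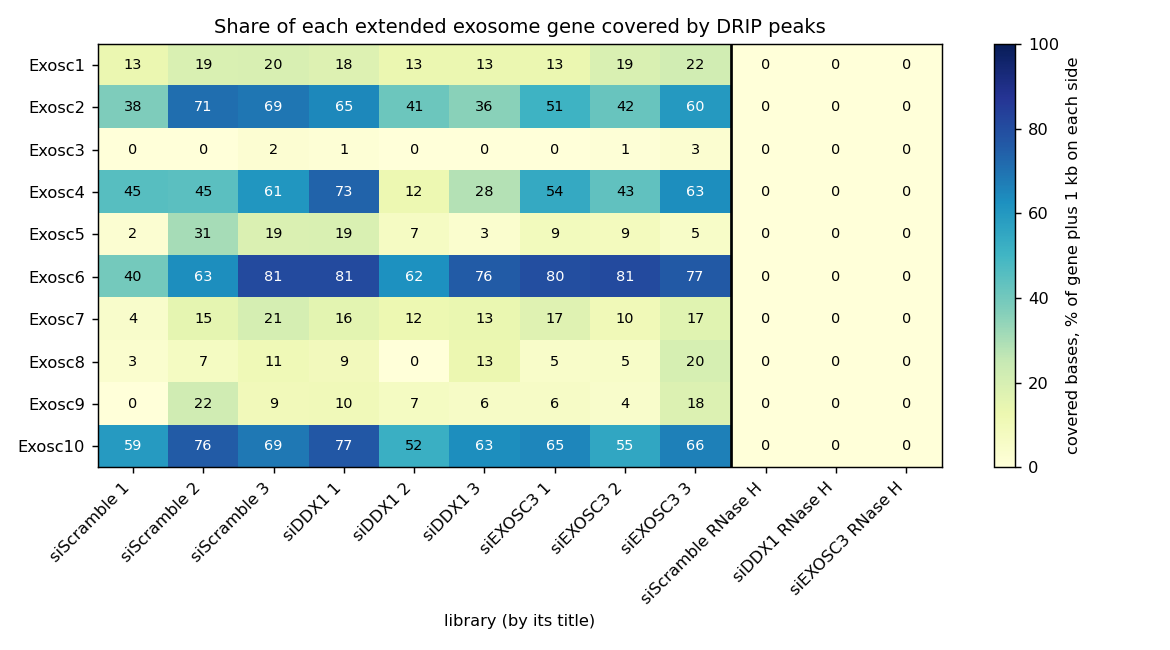
Share of each exosome gene, extended by 1 kb on each side, covered by DRIP peaks (% of bases, colour and printed value) in the 9 untreated and 3 RNase H libraries, named by their titles. Exosc6, Exosc10, Exosc2 and Exosc4 are the most covered, Exosc3 is at 0 in 5 untreated libraries, and all values in the RNase H libraries are 0.

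Exosc3 encodes the cap subunit against which one of the siRNAs was directed, and its hybrids were measured first as the targeted gene. Its covered bases were 0, 0 and 601 in siScramble replicates 1 to 3, 338, 0 and 0 in siDDX1, and 0, 316 and 810 in siEXOSC3. Only 4 of 9 libraries held a peak, each group held both covered and uncovered libraries, and the highest value was in a library titled siEXOSC3. A DRIP peak list does not measure the mRNA that an siRNA lowers, so these values check neither the knockdown nor the labels. The annotated bound of Exosc3 (chr4:45329485-45355604, minus strand) is set by a long transcript, and its RefSeq start, matched to mm9, lies at chr4:45333488, 22116 bases further along the gene. No library had a peak within 1 kb of the RefSeq start. The 5 peaks found lay within 1078 bases of the outermost annotated start, around the start of Dcaf10, which is transcribed in the opposite direction and lies 631 bases inside that bound. Their fold over input was 4.82 to 7.84. A DRIP peak carries no strand, so that hybrids of Exosc3 and Dcaf10 cannot be told apart there.

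**Figure D2:**
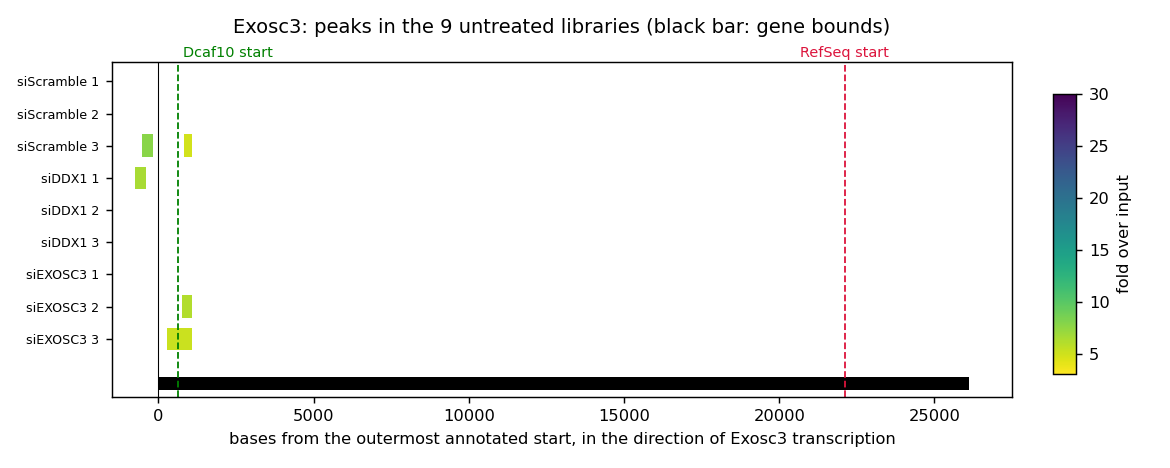
Peaks at Exosc3 in the 9 untreated libraries (rows), against the distance in bases from its outermost annotated start, coloured by deposited fold over input. The few peaks lie within 1078 bases of that start, around the start of Dcaf10, and none lies at the RefSeq start.

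By a rule that names the genes most like Exosc3 in covered bases over the 9 untreated libraries, on other chromosomes, Amigo3 (Pearson r = 0.97), Hus1 (0.97) and Npm2 (0.97) stood first among 10385 genes. These 9 points share their libraries and peak totals, and 5 of them are 0 for Exosc3, so the values are a description only.

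The other cap genes were covered toward their 3′ ends. Exosc1 (chr19:41997470-42007804, minus strand), whose product joins the cap, had no peak at its start in any library, although its start lies 158 bases from that of the divergent gene Zdhhc16. A peak over its 3′ end occurred in 9 of 9 libraries and covered 100% of the 1 kb downstream in each of them. Covered bases were 1604, 2349 and 2407 in siScramble, 2174, 1604 and 1604 in siDDX1 and 1604, 2329 and 2695 in siEXOSC3. The value of 1604, found in 4 libraries of all 3 groups, is that of the peak bounded by the BsrGI site printed above. Its fold varied more than its extent, from 4.69 to 15.5, with both of these values in siScramble libraries.

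Exosc2 (chr2:31526235-31536870, plus strand) likewise had no peak within 1 kb of its start. With each gene split into 3 segments of equal length, 88.1% ± 10.7 of the bases of its last segment were covered, against 19.4% ± 16.5 in the first, and the last exceeded the first in 9 of 9 libraries. On the mean over libraries the last segment exceeded the first at 6 of the 10 exosome genes. Of the 11157 genes with a peak, 50.1% showed the same. Its covered bases were 4784, 8942 and 8688 in siScramble, 8173, 5215 and 4513 in siDDX1 and 6451, 5291 and 7529 in siEXOSC3, so that each group held values on both sides of the overall median of 6451. Gm13427, annotated as a processed transcript, overlaps the extended bounds of Exosc2, and the peaks cannot be assigned to one strand. At Exosc2 the highest fold per library was 11.6 to 27.8, at or above the percentile 92.8 of its own list in each library.

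Among the ring genes, Exosc4 and Exosc6 had the largest shares of their length covered, while Exosc7, a longer gene, had more covered bases (3460 on average, against 2498 and 2363). Exosc4 (chr15:76157827-76161107, plus strand) is a short gene that overlaps Oplah, which starts on the other strand 618 bases inside it. Its extended bounds also reach Gpaa1. Covered bases were 2396, 2371 and 3206 in siScramble, 3880, 656 and 1491 in siDDX1 and 2855, 2295 and 3330 in siEXOSC3. Both the lowest and the highest value belonged to siDDX1, and 217 bases were covered in 9 of 9 libraries, 5.18% of those covered in any. The last segment of the gene was covered for 82.6% ± 33.0 and the first for 26.9% ± 34.8. Peaks counted at Exosc4 also held the start of Gpaa1 in 7 libraries and that of Oplah in 3. A peak lay within 1 kb of the Exosc4 start itself in 4 libraries, and hybrids of Exosc4 and Oplah cannot be told apart there.

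Most of Exosc6, an intronless gene for a ring subunit, lay in peaks. Its extended bounds overlap Aars on the same strand, so hybrids of Exosc6 and Aars cannot be told apart there. Covered bases were 1324, 2103 and 2689 in siScramble, 2689, 2069 and 2512 in siDDX1 and 2648, 2689 and 2546 in siEXOSC3. In 4 libraries a single peak ran from the HindIII to the XbaI site printed above, 220 bases before the start to 2732 after it, and in the remainder it was broken up or shorter. The fold of the peak over the first base was 5.34, 9.91 and 8.76 in siScramble, 8.58, 4.92 and 8.42 in siDDX1, and 9.32, 9.17 and 15.0 in siEXOSC3. The siEXOSC3 values lay above the siDDX1 values without overlap (means 11.1 ± 3.30 and 7.30 ± 2.07, exact permutation p = 0.1, two-sided, the smallest that 3 against 3 allows). Of the 1127 genes with a peak over the first base in 9 of 9 libraries, 15.2% showed the same separation in that direction. These folds were not centred on each list, and in the centred values within 500 bases of the start, a window that leaves out the peak over Aars described next, siEXOSC3 differed from siDDX1 at Exosc6 by 0.07 on the log2 scale (adjusted p of 0.899, limma). A further peak over the body of Aars ended 858 bases before the Exosc6 start in 6 libraries, with a fold of 11.3 to 22.4. The highest fold within 1 kb of the start, used in the tests below, came from that neighbouring peak in those libraries.

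Exosc7 (chr9:123022333-123045247, plus strand) was covered at its start and little beyond. The 1 kb upstream was covered for 81.0% ± 31.6, the first segment of the gene for 28.5% ± 7.55, and the rest of it less, with 2.53% ± 3.19 in the middle and 1.53% ± 3.29 at the end. The first segment exceeded the last in 9 of 9 libraries. Covered bases were 1108, 3727 and 5111 in siScramble, 3897, 3033 and 3347 in siDDX1 and 4195, 2597 and 4123 in siEXOSC3. In siScramble replicate 1, the library with the fewest peaks of all, the peaks lay on both sides of the start and left the start itself uncovered. In the 8 others a peak lay over it. Zdhhc3 starts 10 bases away on the opposite strand, and the peaks held its start in the same number of libraries, so hybrids of the pair cannot be told apart.

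The remaining ring genes had short peaks of low fold that shared few edges between libraries. The edges that recurred in at least 4 libraries were at a BsrGI site at Exosc8 (4 libraries) and a HindIII site at Exosc9 (5 libraries). Exosc5 (chr7:26444172-26453050) had 270 to 3324 covered bases and a peak near the start in 1 library, Exosc8 (chr3:54532600-54539315) had 0 to 1765 and Exosc9 (chr3:36451528-36464651) had 0 to 3325. No base of these 3 genes was covered in 9 of 9 libraries. Exosc8 had no peak in siDDX1 replicate 2 and Exosc9 none in siScramble replicate 1, the 2 lists with the fewest peaks. Within Exosc8 the peaks lay in the last segment only (30.9% ± 23.1 covered), next to the neighbouring gene Fam48a. Exosc9 was covered for 18.4% ± 14.8 in its middle segment and for 3.05% ± 4.60 in its last. The highest fold per library was 3.89 to 6.60 at Exosc5, 4.89 to 8.67 at Exosc8 and 4.89 to 7.72 at Exosc9. When any annotated transcript start was used in place of the gene bound, 8 libraries had a peak at Exosc8, 6 at Exosc9 and 7 at Exosc2, since their shorter transcripts begin inside the gene.

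**Figure D3:**
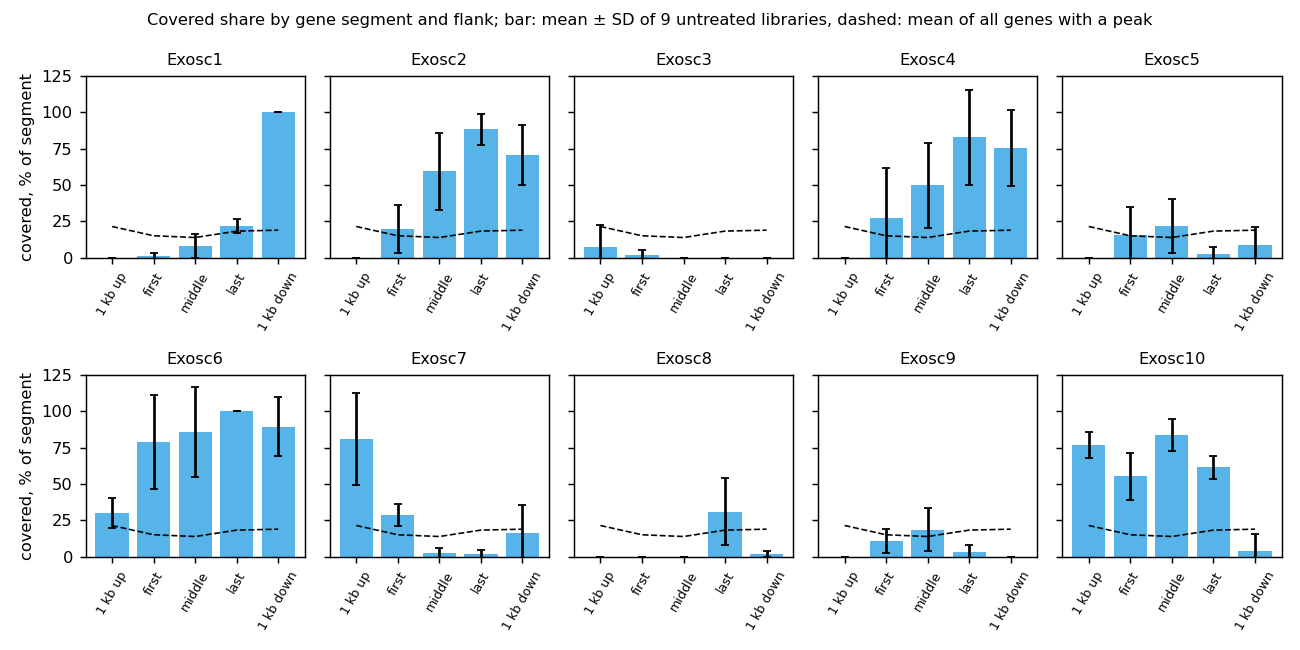
Share of bases covered (%) in the 1 kb upstream, in the first, middle and last segment of the gene (of equal length, along the direction of transcription), and in the 1 kb downstream. Bars are means ± SD of the 9 untreated libraries, and the dashed line is the mean over the 11157 protein-coding genes with a peak. Exosc1, Exosc2 and Exosc4 rise toward the 3′ end, Exosc7 falls from its start, and Exosc10 is covered throughout.

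Exosc10, the exoribonuclease, was covered along most of its length. Its bounds are chr4:147932538-147956510 on the plus strand. Covered bases were 15421, 19626 and 17800 in siScramble, 19987, 13547 and 16430 in siDDX1 and 16881, 14346 and 17255 in siEXOSC3, so that the lowest and the highest library were both titled siDDX1. The number of peaks was 7 to 13 per library, and 6984 bases were covered in 9 of 9 libraries, 30.9% of those covered in any. The first, middle and last segments of the gene were covered for 55.4% ± 16.2, 83.5% ± 10.8 and 61.4% ± 7.95, against means of 15.0%, 13.8% and 18.2% over the 11157 genes with a peak. The middle block began at the XbaI site 6526 bases into the gene in 9 of 9 libraries, and a later block ended at that at 21054 in 9 of 9. The highest fold was 12.8 to 27.0, at or above the percentile 94.6 of its own list in every library. Upstream, a peak began at the XbaI site at -809, inside the end of Mtor, which lies on the same strand, in 8 of 9 libraries. The peaks counted at Exosc10 also held the start of Gm13204, a pseudogene that overlaps the extended gene, in 9 of 9 libraries.

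**Figure D4:**
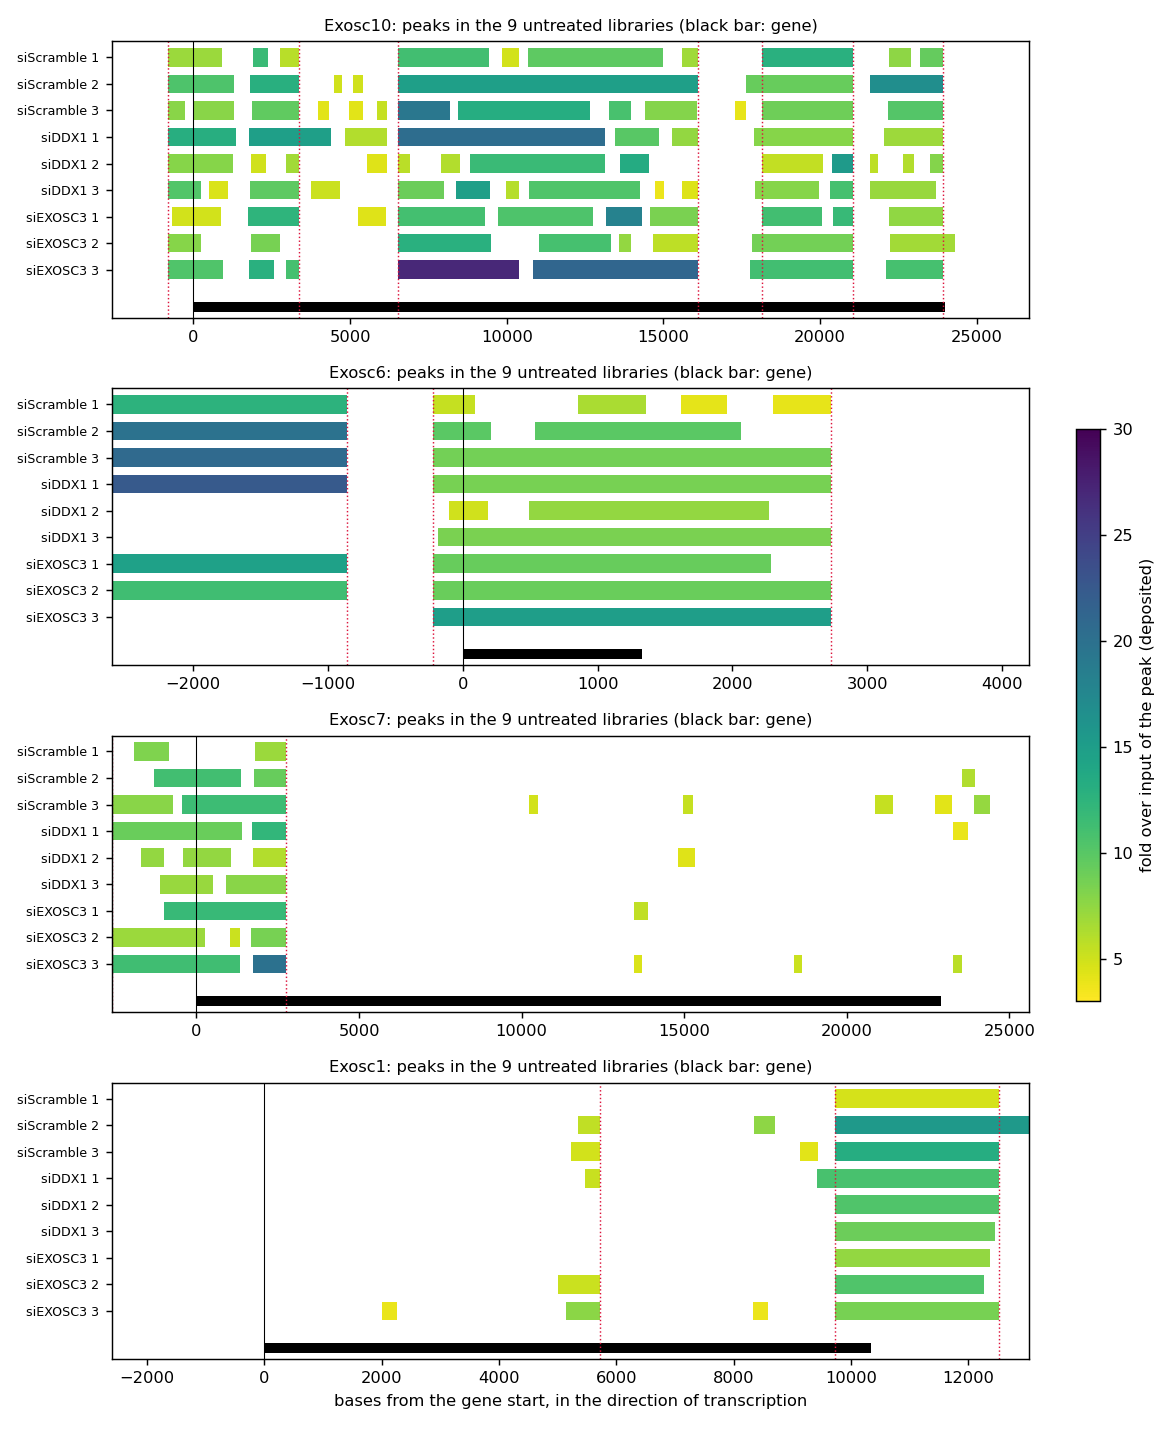
Peaks in the 9 untreated libraries (rows, by title) at Exosc10, Exosc6, Exosc7 and Exosc1, against bases from the gene start, coloured by deposited fold over input. Black bars are the genes, dotted red lines are edges shared by at least 4 libraries, each of which lies on a restriction cut, and peaks that run past a panel are drawn to its border.

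Base composition near the starts did not separate the genes with and without a peak there. GC content within 500 bases of the start was 62.8% at Exosc6, 64.8% at Exosc7 and 58.2% at Exosc10, against a median of 54.7% over all genes. It was highest among the 10 at Exosc8 (70.7%, percentile 96.2 of all genes), which had no peak at its start. Of the other genes with no start peak in any library, Exosc1 had 62.0%, while Exosc2 (52.7%) and Exosc9 (54.3%) lay below that median. GC skew over the 500 bases after the start, the excess of G over C on the sense strand, was 0.173 at Exosc7 and 0.135 at Exosc8 but -0.0208 at Exosc10, with a median of 0.0435 over all genes. The restriction fragment that held the start was 2949 bases long at Exosc6, 3749 at Exosc7 and 2514 at Exosc10, and 954 to 2827 at the 7 others, where the median of all genes was 1530.

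To ask whether knockdown changed hybrids over the exosome genes, covered bases were compared across the 3 groups. None of the 10 genes was called. The exact permutation test over the 280 splits of the 9 untreated libraries gave unadjusted p from 0.368 (Exosc6) to 0.95 (Exosc7), and adjusted p = 1 for each of the 10 genes. None of the 10 reached an unadjusted p under 0.05, where 2.79% of the 11157 genes tested did, and 1 was also the smallest adjusted p over all those genes. With a smallest possible p of 0.00357, this test called no gene of the table, so it does not show that the groups were alike. Without siDDX1 replicate 1, the unadjusted p of Exosc4 went from 0.611 to 0.025, and its adjusted p was 0.514 (exact permutation test). At Exosc10 the groups averaged 17616 ± 2109 (siScramble), 16655 ± 3226 (siDDX1) and 16161 ± 1583 (siEXOSC3) covered bases (SD, n = 3 each). At Exosc6 they averaged 2039 ± 685, 2423 ± 319 and 2628 ± 73.6. Between pairs of groups, where 3 against 3 cannot give p under 0.1, the libraries overlapped at 10 of 10 genes in each pair. Over the 11157 genes, siDDX1 lay above siScramble in every library at 0.816% and below it at 1.86%, siEXOSC3 lay above siScramble at 6.41% and below it at 3.55%, and siEXOSC3 lay above siDDX1 at 5.06% and below it at 2.37%. With 10 genes, a count of 0 is close to these shares. Over the 10 genes together, siScramble replicate 1 had 27180 covered bases and siDDX1 replicate 2 had 27938, the lowest of the 9, and these are the lists with the fewest peaks, while siScramble replicate 2 had the highest, 46396.

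**Figure D5:**
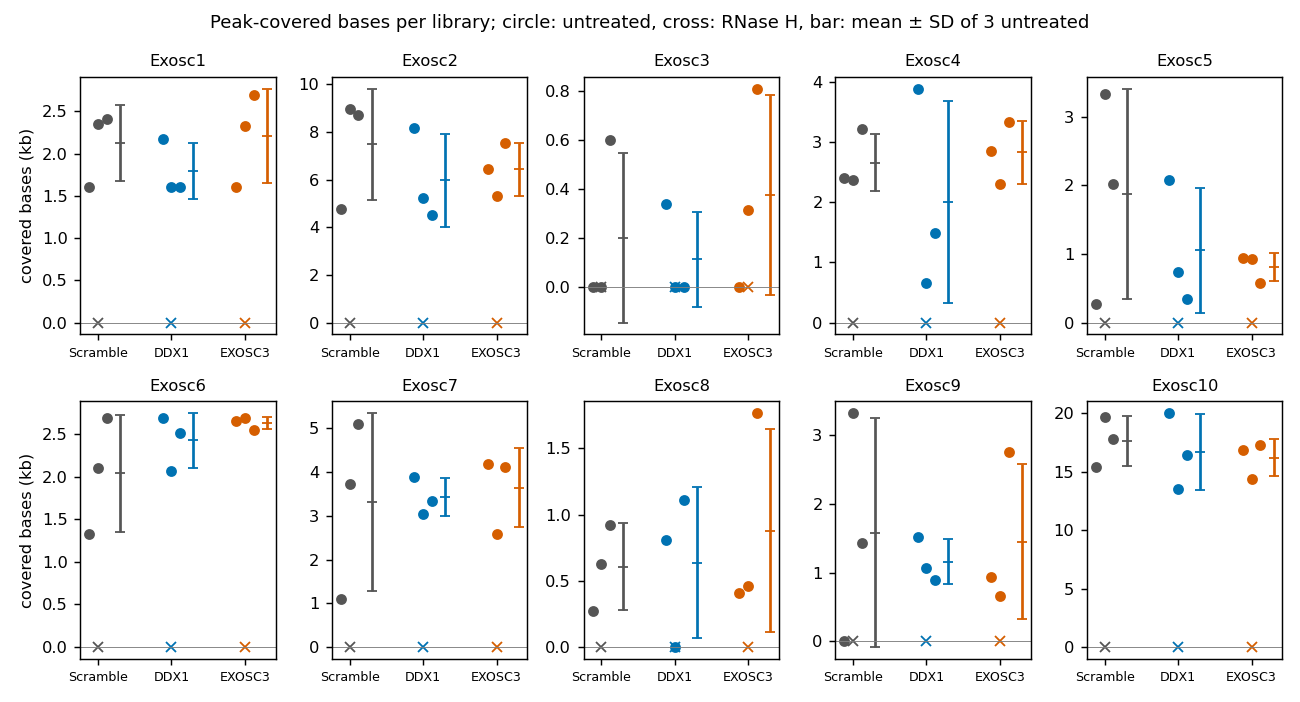
Peak-covered bases (kb) at each exosome gene, by the group in the title. Circles are the 3 untreated libraries, crosses the RNase H library, and bars the mean ± SD of the untreated libraries. The groups overlap at every gene, and each RNase H value is 0.

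The fold over input at the gene start was compared in the genes with a start peak in 9 of 9 untreated libraries, 2490 in all, among them Exosc6, Exosc7 and Exosc10. None of the 3 passed at an adjusted p under 0.05 in limma's moderated F test across groups, which 1.41% of the 2490 genes did. At the start of Exosc10 the highest fold was 7.03, 10.5 and 7.84 in siScramble, 13.1, 7.89 and 10.4 in siDDX1 and 4.83, 7.95 and 10.5 in siEXOSC3, and the groups overlapped before scaling. After each list was centred on the median log2 fold of these genes, siDDX1 averaged 0.10 ± 0.09, siScramble -0.34 ± 0.17 and siEXOSC3 -0.70 ± 0.45 on the log2 scale (SD, n = 3). The F test of Exosc10 gave an unadjusted p of 0.0103, as 17.2% of the genes did at p under 0.05, and an adjusted p of 0.159 (limma). Its difference of siEXOSC3 from siDDX1 was -0.80 ± 0.23 (SE, log2), with an adjusted p of 0.0809 (limma). Without centring it was -0.47, with an adjusted p of 0.452 (limma), and the unadjusted p of the F test was 0.350. Exosc6 (adjusted p of 0.367, limma F test) and Exosc7 (0.764, limma F test) varied less between groups relative to their spread. In the pairs of groups none of the 3 genes was called, where 0% of the 2490 genes were called for siDDX1 against siScramble, 0.964% for siEXOSC3 against siScramble and 0.843% for siEXOSC3 against siDDX1.

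The lists of the RNase H libraries held no peak at the exosome genes. No peak overlapped any of the 10 extended genes in any of the 3 RNase H libraries, where 13.5% of all genes had a peak in at least 1 of them. In an exact permutation test that moved the RNase H label within each siRNA group (64 assignments), covered bases were lower after RNase H at 6 of the 10 genes, Exosc1, Exosc2, Exosc4, Exosc6, Exosc7 and Exosc10 (p = 0.0156, the smallest these assignments can give, adjusted p = 0.0388 over 12117 genes). The same call was made for 38.2% of these genes. The difference was -16810 bases at Exosc10, -6621 at Exosc2 and -3460 at Exosc7. At Exosc3, Exosc5, Exosc8 and Exosc9, where some untreated libraries held few or no covered bases, p was 0.406, 0.0625, 0.0938 and 0.0781. For 6 of the 9 untreated libraries, leaving that library out brought the adjusted p of all 10 genes above 0.05 (the smallest p is then 0.0208), and without siScramble replicate 1 Exosc5 was called as well. Each group had 1 RNase H library, and a peak missing from a list does not give the level that remained.

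Of 14 other genes of the exosome pathway, 5 had a start peak in 9 of 9 libraries (11.1% of all genes) and 5 had none in any (65.9% of all genes). Dis3, the catalytic subunit with exo- and endonuclease activity, Papd5, the poly(A) polymerase of the TRAMP complex, Zfc3h1, a subunit of the PAXT connection, Skiv2l, the helicase of the SKI complex, and Hbs1l, whose short isoform links the SKI complex to the exosome, had the start peaks. C1d and Zcchc7, both nuclear cofactors, Zcchc8 of the NEXT complex, and Ttc37 and Wdr61 of the SKI complex had none. In the median the 14 genes were covered for 4.55% of their extended length, against 15.2% for the 10 subunit genes. The sets were not matched for gene length, over which this share is taken. None of the 14 passed at an unadjusted p under 0.05 in covered bases across groups, where 2.79% of all genes tested did. After RNase H, 4 of the 14 genes had a peak in at least 1 library, as did 13.5% of all genes. At Papd5 the same 1785 bases (chr8:90726115-90727899, which begins 3003 bases from the gene start) were covered in each of the 3, with a fold of 14.8 to 22.1. At Ttc37, a subunit of the SKI complex, 877 bases (chr13:76267337-76268213) were covered in each of the 3. The fold there was 5.84 in the siScramble, 3.89 in the siDDX1 and 30.6 in the siEXOSC3 RNase H library. The siDDX1 value stood at percentile 3.70 of its list. Zfc3h1 and Hbs1l had peaks of 4.62- to 6.23-fold over input inside the gene.

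At the start of Hbs1l the groups separated, the one call among the 5 pathway genes tested for fold. The highest fold at its start was 10.5, 11.1 and 12.1 in siScramble, 24.0, 13.5 and 18.1 in siDDX1 and 6.83, 7.58 and 8.15 in siEXOSC3. The siDDX1 libraries lay above the siScramble libraries, and those above the siEXOSC3 libraries, without overlap. The moderated F test gave an adjusted p of 0.00496, and siEXOSC3 differed from siDDX1 by -1.60 ± 0.21 (SE, log2) with an adjusted p of 0.00104, both from limma. Of the 2490 genes tested, 1.41% passed this F test and 0.843% passed for siEXOSC3 against siDDX1. At Hbs1l siDDX1 against siScramble (adjusted p of 0.153, limma) and siEXOSC3 against siScramble (0.106, limma) did not pass. The share of genes whose groups separate without overlap in this way was not counted. Without centring of the lists the adjusted p was 0.151 for the F test and 0.0651 for siEXOSC3 against siDDX1 (limma). At the start of Dis3 the mean log2 fold was -0.37 ± 0.34 in siScramble, -0.25 ± 0.15 in siDDX1 and -1.17 ± 0.29 in siEXOSC3, and the F test gave an adjusted p of 0.0903 (limma).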

How the data were processed

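N2A libraries were made by DRIP-seq after restriction digestion. Per the labels and the study's methods, reads were aligned to mm9 with Bowtie2 2.4.4 and peaks were called against input with MACS2 2.2.6, separately for each library. The deposited lists give the fold over input (a ratio), −log10 p and −log10 q of each peak, and the authors' narrow-peak score, which was not used. The lists hold no read counts, so read depth is unknown, and the precision is that of 3 libraries per group. The Input sample was not analysed here.

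Bases covered by peaks were counted over each gene with 1 kb on each side, and start peaks within 1000 bases of the gene start. Covered bases were tested by exact permutation over libraries with Benjamini-Hochberg adjustment over all protein-coding genes with a peak. Log2 fold at the start, centred per list, was tested with limma 3.58.1 (lmFit, eBayes with trend, R 4.3.3). Other steps used Python 3.11.15 and numpy 2.4.6. The code was tested on simulated data with known changes. Named genes were the 10 subunits, 14 pathway genes, neighbours whose start lies in a subunit's peak, and the 3 genes most like Exosc3. RefSeq promoters of 8 of the 10 genes matched mm9 once. The members and lists were chosen with earlier results of these data known. Alternatives were stricter, joined or equally many peaks, other windows, other scaling, a replicate block and leaving out each library.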

Additional observations from a re-analysis of the deposited data

How the results depend on the processing

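Start peaks in 9 of 9 libraries were found at 2 or 3 of the 10 exosome genes under every alternative run, including the 2 chosen after seeing the data (a peak over the first base, 2, and RefSeq starts, 3). The number of genes called across groups, for covered bases or fold, was 0 under every alternative, which for covered bases says nothing about stability, since no gene of the table was called. Leaving out 1 untreated library moved the genes without overlap between pairs of groups from 0 to between 0 and 2 (siDDX1 against siScramble), 0 and 3 (siEXOSC3 against siScramble) and 0 and 3 (siEXOSC3 against siDDX1). The larger counts came without siScramble replicate 1 (2 and 3 genes, where 20.1% and 32.0% of all genes did not overlap) and without siDDX1 replicate 1 (1 and 3 genes, against 19.7% and 32.2%). A count of 1 came without siScramble replicate 3 (16.2% of all genes) or siEXOSC3 replicate 1 (13.2%) or 2 (12.6%). For RNase H the genes called ranged from 0 to 7. With a library less, the 48 assignments give no p below 0.0208. The count was 7 without siScramble replicate 1, 6 without siDDX1 replicate 1 or 2, and 0 without siScramble replicate 2 or 3, siDDX1 replicate 3 or siEXOSC3 replicate 1, 2 or 3. The cause of the difference was not tested, and the 6 genes stayed at an unadjusted p under 0.05 each time. With an equal number of peaks per untreated library (23882) no call changed.

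With the replicate block the number of exosome genes called across groups was 0 for covered bases (unadjusted p of 0.5 to 0.972) and 0 for fold. The replicate numbers were not shown to pair the samples, as same-numbered libraries deviated from their group means with correlations of -0.81 to 0.84 in covered bases and -0.10 to 0.11 in log2 fold over 9 pairs, and the block changed no call. Of the pathway genes, Hbs1l lost its calls without centring only. Over all 2490 genes the F test called 35 in the main setting, 8 without centring, 14 with the overlap-weighted fold, 21 with a window of 500 bases, and 3 to 61 when a library was left out. What the lists hold limits these results, since a base outside a peak has no value.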
